A study of Macaca mulatta with 6 samples.

Results

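The unfolded protein response sensors and effectors EIF2AK3, ERN1, ATF6, ATF4, XBP1 and DDIT3 were described in serotonin neurons of 6 female rhesus macaques, captured by laser from the dorsal raphe nucleus. The members are every probe set annotated with exactly 1 gene symbol that is one of these 6, which gave 7 of the 52766 transcript probe sets on the array. XBP1 had 2 probe sets and each of the other genes had 1. The set was chosen by pathway, but with measured values in view: EIF2AK3 had been picked out by its estrogen minus placebo and its estrogen+progesterone minus placebo differences in these same arrays. The members' values in those comparisons are therefore given as a description with no test. The 6 genes are among 14132 with a probe set of 1 symbol.

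Each array held RNA of 1 monkey, with 2 monkeys each for placebo, estrogen, and estrogen together with progesterone, all carrying implants under the skin for 1 month. The tag Ovx in the placebo titles is read here as ovariectomized, and the titles of the hormone-treated samples state the hormones alone. A value is the deposited signal of a probe set, a linear intensity that the authors scaled to the same trimmed mean on every array. In RNA from many captured cells, fewer cells of a type and less RNA per cell cannot be told apart. The number of arrays limits the precision, and the median standard error of a log2 difference was 0.945.

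The unfolded protein response adjusts protein folding in the endoplasmic reticulum (ER) to demand. Its sensors sit in the ER membrane: PERK, encoded by EIF2AK3, slows translation by phosphorylating eIF2alpha, IRE1, encoded by ERN1, splices XBP1 mRNA, and ATF6 is cut in the Golgi to release a transcription factor. ATF4, the spliced form of XBP1, and CHOP, encoded by DDIT3, then act on chaperone, amino acid and cell death genes. PERK and IRE1 are switched on by phosphorylation, ATF4 mainly through translation and XBP1 through splicing, so a probe set signal reports transcript abundance and not the activity of the sensor.

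The arrays differed in background. The floor of an array, defined as the 95th percentile over 59 bacterial and tag controls that should find no target, lay at 216 and 221 on the placebo arrays and at 283 on estrogen+progesterone 2, called high-floor arrays here. It lay at 29.99, 51.6 and 74.9 on estrogen 1, estrogen 2 and estrogen+progesterone 1, called low-floor arrays, a division made with the values known. Between 28.7% and 62.2% of transcript probe sets stood above the floor of an array. The low-floor arrays correlated with each other at r of 0.842 to 0.913 across the 26383 probe sets tested, while estrogen+progesterone 2 correlated with the other 5 arrays at r of -0.0504 to 0.333. Both placebo arrays are high-floor and both estrogen arrays low-floor, so floor and estrogen treatment cannot be told apart. Of markers of the labelled cell type, 8 of 11 had a named probe set and 5 of them stood above the floor on all 3 low-floor arrays. TPH2, which makes the serotonin precursor in these neurons, passed the floor only on the estrogen arrays, at 54.0 and 63.2, although its signals were higher on the high-floor arrays, at 126, 211 and 243. On the same 3 arrays 6 of 6 named general neuron, 9 of 10 astrocyte, 4 of 4 oligodendrocyte, 8 of 10 microglia, 5 of 8 endothelial and 0 of 6 plasma cell markers were above the floor. The summed astrocyte signal was 28561 and 25456 under placebo, 76997 and 92397 under estrogen, and 85362 and 4646 under the combined hormones. The summed general neuron signal was 10032 and 14905, then 29539 and 31140, then 29623 and 2542 in the same order. The summed serotonin neuron signal ran the other way, at 2158 and 1996, then 1774 and 1063, then 1648 and 2375. It includes values under the floor, such as TPH2 on the high-floor arrays. The endothelial sum was likewise lower with estrogen than placebo, at 1257 and 1821, then 897 and 1025, then 1483 and 1659. So was the plasma cell sum, at 1557 and 1051, then 148 and 146, then 180 and 1454. What these sums owe to array background was not tested. The summed oligodendrocyte signal overlapped between placebo and estrogen, at 34403 and 47637, then 38371 and 53754, then 52761 and 2841. No marker signal was 0, and the part of other cell types in the members' values was not tested.

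**Figure D1:**
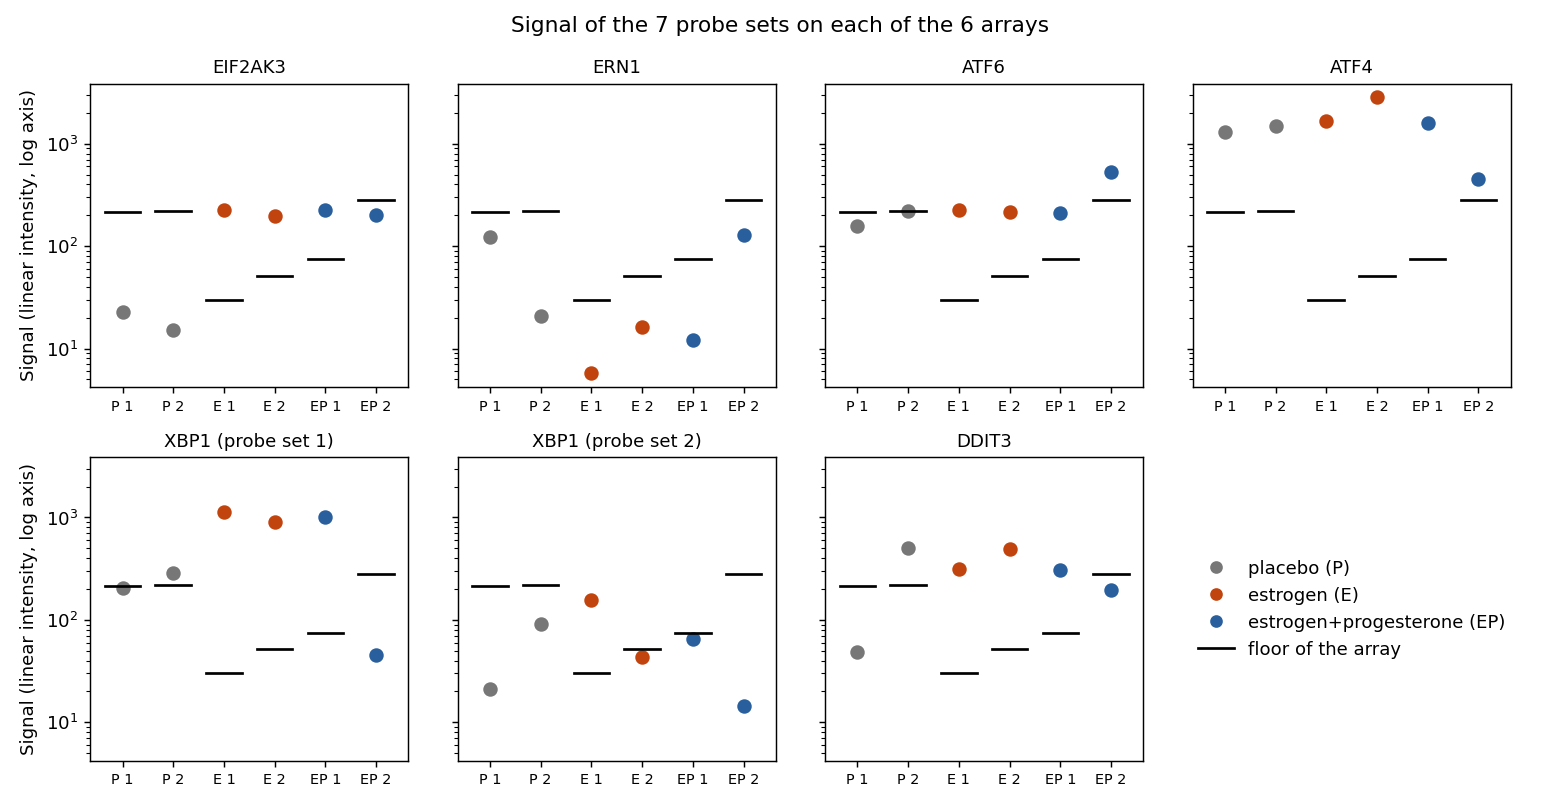
Deposited signal of each of the 7 probe sets (linear intensity on a log axis) on the 6 arrays, 1 point per monkey, with a bar at the floor of that array. EIF2AK3 lies far under the floor on both placebo arrays and at 196 to 225 on the other 4, ERN1 lies under the floor on all 6, and ATF4 lies above it on all 6.

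Across the members, 5 of 6 genes stood above the floor on each low-floor array, and ERN1 was the exception. This share of 83.3% stood beside 79.1%, 74.6% and 68.8% of all named genes on estrogen 1, estrogen 2 and estrogen+progesterone 1. On the high-floor arrays the number of genes above the floor was 1 on placebo 1, 3 on placebo 2 and 2 on estrogen+progesterone 2. As shares of the 6 genes these were 16.7%, 50% and 33.3%, beside 50.6%, 49.97% and 34.0% of all named genes. Over probe sets, 5 of 7 passed it on all 3 low-floor arrays, beside 41.9% of all transcript probe sets. All transcript probe sets include 27449 with no gene symbol, while each member has a symbol, so the shares by gene are the closer comparison. Counted over probe sets, 85.7%, 71.4% and 71.4% of the 7 were above the floor on estrogen 1, estrogen 2 and estrogen+progesterone 1, beside 62.2%, 58.5% and 49.6% of all transcript probe sets there. The same shares were 14.3%, 42.9% and 28.6% on placebo 1, placebo 2 and estrogen+progesterone 2, beside 37.3%, 36.3% and 28.7% of all. The placebo 1 count rose from 1 to 3 probe sets with the floor at the 90th percentile, and that of estrogen+progesterone 2 fell from 2 to 1 with the floor at the 99th.

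Among the sensors, EIF2AK3 had signals of 22.7 and 15.1 under placebo, 225 and 196 under estrogen, and 223 and 199 under the combined hormones. Both placebo signals were far under the floor of their arrays, and the 4 hormone arrays lay within 1 narrow band with no overlap with placebo. Set against its own array's floor, the signal was 0.105 and 0.0685 times the floor with placebo, 7.52 and 3.79 times with estrogen, and 2.97 and 0.704 times with both hormones. The transcript was therefore measured on 3 arrays, and estrogen+progesterone 2, at 199 against a floor of 283, gave only a bound. After log2 transformation and quantile normalization, the means were 4.79 ± 0.18 (SD, n = 2 monkeys) for placebo, 8.05 ± 0.16 for estrogen and 7.62 ± 0.71 for the combined hormones.

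The log2 difference of EIF2AK3 was 3.25 ± 0.83 (SE, n = 2 monkeys per group) for estrogen minus placebo and 2.83 ± 0.83 for estrogen+progesterone minus placebo, 2 comparisons that share their placebo arrays. After quantile normalization, with the placebo values raised to the floor, the gene was at least 1.54-fold higher with estrogen, a bound that does not include the spread between animals. For both hormones the same calculation gave 1.15-fold. It includes estrogen+progesterone 2, which was under its own floor, so no lower bound is claimed there. Only estrogen+progesterone 1 stood above the floor in that comparison, so its difference of 2.83 rests largely on values under the floor. For estrogen, the deposited scale gave no bound, since the estrogen signals of 225 and 196 were not both above the placebo floors of 216 and 221. This pattern, under the floor for both placebo monkeys and over it for both estrogen monkeys, held for 14.8% of all transcript probe sets. After normalization, all 4 hormone arrays exceeded both placebo arrays for 9.23% of the probe sets tested, EIF2AK3 among them. ATF6 shared both patterns.

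EIF2AK3 passed the filter on low values only narrowly. Its mean over the 6 arrays was 6.82 on the log2 scale against a filter of 6.81, and it passed through the hormone arrays alone. In 5 of the 16 alternative fits, among them those without estrogen 1, without estrogen 2 or without estrogen+progesterone 1, it fell below the filter.

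ERN1, the most conserved of the sensors, was below the floor on all 6 arrays, as were 19.5% of all transcript probe sets. Its signals were 124 and 20.8 under placebo, 5.72 and 16.3 under estrogen, and 12.03 and 127 under the combined hormones. The highest value relative to background was 0.574 times the floor, on placebo 1, and ERN1 stayed below the floor with the 90th percentile in place of the 95th. No difference between groups is given for it, since its values carry only upper bounds.

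ATF6, the sensor released by cleavage, had signals of 157 and 219 under placebo, 227 and 218 under estrogen, and 213 and 534 under the combined hormones. The 5 arrays other than estrogen+progesterone 2 lay close together, and that array stood above the rest. Placebo 2, at 219 against a floor of 221, missed the floor by a small margin, and with the floor at the 90th percentile ATF6 was above it on all 6 arrays. The log2 difference was 0.95 ± 0.88 (SE, n = 2 monkeys per group) for estrogen minus placebo and 1.73 ± 0.88 for estrogen+progesterone minus placebo, the latter falling to 0.99 without estrogen+progesterone 2. As deposited, the placebo and estrogen signals overlapped, while after normalization they did not, and with no quantile normalization the estrogen minus placebo difference was 0.24. No lower bound is given for ATF6.

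Among the effectors, XBP1, the transcription factor whose mRNA IRE1 splices, had signals of 203 and 287 under placebo, 1125 and 912 under estrogen, and 1018 and 45.2 under the combined hormones. The 3 low-floor arrays agreed within a ratio of 1.23, both placebo arrays lay near their floor, and estrogen+progesterone 2 was at 0.16 times its floor. Estrogen minus placebo stood at 1.92 ± 1.25 on the log2 scale (SE, n = 2 monkeys per group). For estrogen+progesterone minus placebo it was -0.14 ± 1.25 with all arrays and 2.17 without estrogen+progesterone 2, so that 1 array decided the value. The standard error of 1.25 pools groups whose SDs were 0.53 for placebo, 0.09 for estrogen and 2.98 for the combined hormones. With placebo and estrogen fitted alone, the standard error of estrogen minus placebo was 0.57. The second XBP1 probe set was above the floor on estrogen 1 alone, with signals of 21.2 and 91.4, then 157 and 43.1, then 64.6 and 14.3 in the order placebo, estrogen and both hormones. Its placebo and estrogen signals overlapped, and no difference is given for it. Whether either probe set separates spliced from unspliced mRNA was not tested.

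ATF4, the activator of amino acid and redox genes, was the member above the floor on all 6 arrays, as were 10.1% of all transcript probe sets and 17.5% of named genes. Its signals were 1308 and 1479 under placebo, 1653 and 2830 under estrogen, and 1594 and 453 under the combined hormones. The deposited signals were higher on both estrogen arrays than on both placebo arrays, while the normalized values were lower, at a mean of 10.45 ± 0.59 (SD, n = 2 monkeys) against 10.93 ± 0.05. The log2 difference was -0.48 ± 0.84 (SE, n = 2 monkeys per group), and it was 0.63 with no quantile normalization and 1.88 with arrays centered on their medians, so ATF4 has no settled direction with estrogen. For estrogen+progesterone minus placebo it was -1.32 ± 0.84, with deposited signals that overlapped, and it was -0.94 without estrogen+progesterone 2, -0.70 with no quantile normalization and -0.25 with median-centering.

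DDIT3, which encodes the pro-apoptotic factor CHOP, had signals of 48.2 and 504 under placebo, 317 and 494 under estrogen, and 306 and 196 under the combined hormones. The 2 placebo monkeys differed by 10.5-fold and enclosed all 4 hormone arrays, with placebo 1 and estrogen+progesterone 2 below the floor. The log2 difference was 1.20 ± 1.21 (SE, n = 2 monkeys per group) for estrogen minus placebo, and it was -0.74 without placebo 1 and 3.18 without placebo 2. For estrogen+progesterone minus placebo it was 0.32 ± 1.21, and -1.68 without placebo 1. The placebo spread left DDIT3 with no direction against placebo.

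**Figure D2:**
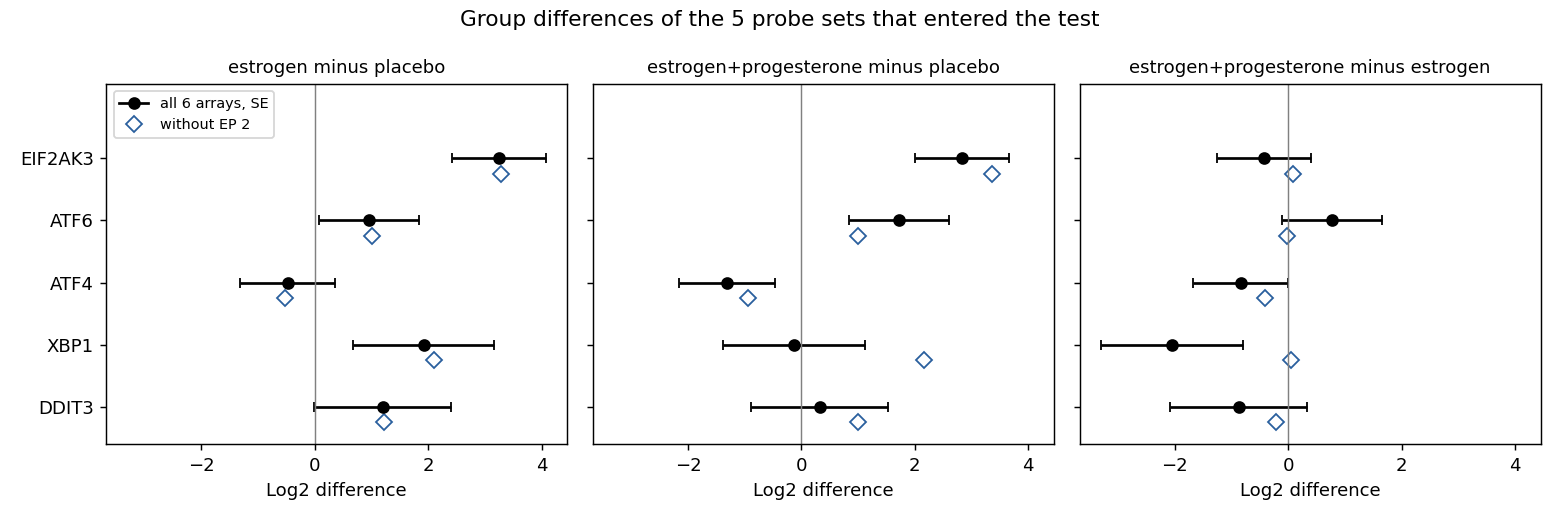
Log2 differences of the 5 members whose probe set entered the test, for each pair of groups; black points show the fit of all 6 arrays with its standard error, and open diamonds the fit without estrogen+progesterone 2. In the comparison of both hormones with estrogen the diamonds lie between -0.40 and 0.085, close to 0.

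Normalized groups did not overlap for 3 members higher with estrogen than placebo, EIF2AK3, ATF6 and XBP1, beside 29% of all probe sets tested, and for 1 lower, ATF4, beside 24.8%. Against placebo, 2 members were higher with both hormones without overlap, EIF2AK3 and ATF6, beside 12.4% of probe sets, and ATF4 was lower, beside 12.3%. Over the 26383 probe sets tested, 0% passed limma's moderated test at an adjusted p of 0.05 in either comparison with placebo, while 7.83% for estrogen and 3.3% for both hormones had an unadjusted p under 0.05. Nothing is read from these counts, since the members were chosen with the same differences in view.

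The comparison of both hormones with estrogen alone asks what progesterone added. It was not itself among the differences that drew attention to EIF2AK3. It is, however, the estrogen+progesterone minus placebo difference less the estrogen minus placebo difference, and both of those were. For EIF2AK3 the comparison is therefore not independent of that choice, and its interval and adjusted p are given as a description. No member passed the test, and none had groups without overlap after normalization, although the deposited signals of ATF4 and DDIT3 were lower on both arrays of the combined hormones than on both estrogen arrays. How many of all probe sets share this on the deposited scale was not computed. For DDIT3 the signal of 196 on estrogen+progesterone 2 was below the floor of 283 and is only a bound. The log2 difference was -0.42 ± 0.83 (SE, n = 2 monkeys per group) for EIF2AK3, with a 95% interval of -2.28 to 1.43 and an adjusted p of 0.879 from limma. ATF6 stood at 0.78 ± 0.88, with an interval of -1.19 to 2.75 and an adjusted p of 0.804 from limma. Among the effectors, XBP1 stood at -2.05 ± 1.25, with an interval of -4.85 to 0.74 and an adjusted p of 0.799 from limma. ATF4 stood at -0.84 ± 0.84, with an interval of -2.72 to 1.05 and an adjusted p of 0.802 from limma. DDIT3 stood at -0.87 ± 1.21, with an interval of -3.57 to 1.82 and an adjusted p of 0.827 from limma. Each interval includes 0 and is over 3 log2 units wide, so neither a change nor its absence is shown.

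In the same comparison limma called 0% of the 26383 probe sets, and 1.76% had an unadjusted p under 0.05. Normalized groups without overlap, which no member had, made up 17.6% of all probe sets in the higher and 16.6% in the lower direction. Leaving out estrogen+progesterone 2 turned the sign for EIF2AK3, ATF6 and XBP1 and brought ATF4 and DDIT3 nearer to 0 with their sign kept: the differences were then 0.085 for EIF2AK3, -0.023 for ATF6, -0.40 for ATF4, 0.059 for XBP1 and -0.22 for DDIT3. These values also set 1 array, estrogen+progesterone 1, against 2, so they show neither a change nor its absence. Without estrogen+progesterone 1 instead, XBP1 stood at -4.02, a value that also sets 1 array against 2. That array is estrogen+progesterone 2, where the XBP1 signal of 45.2 was 0.16 times the floor of 283. The difference of -4.02 therefore rests on a value that is only a bound.

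**Figure D3:**
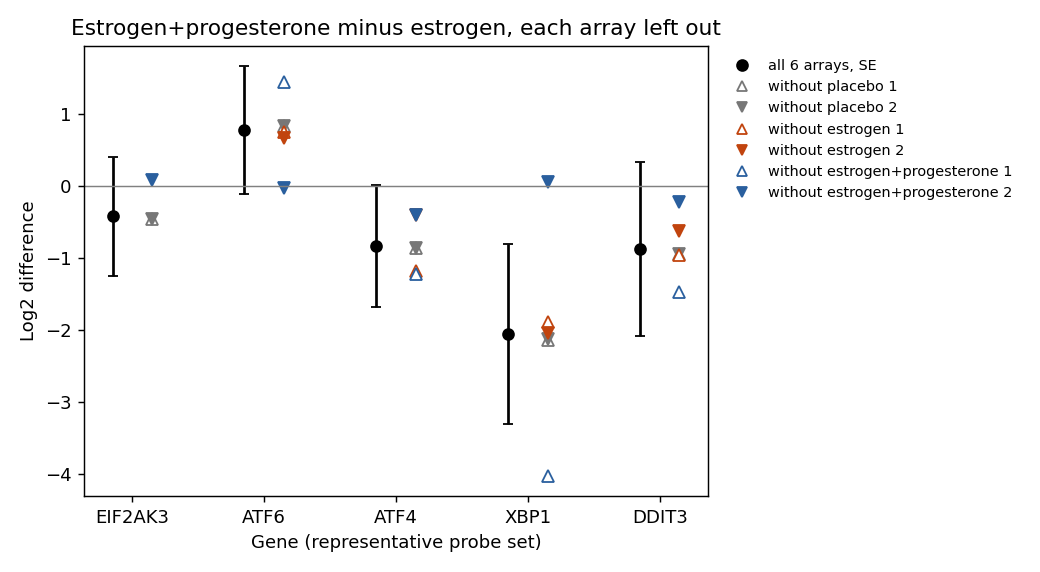
Log2 difference of estrogen+progesterone minus estrogen for the 5 tested members, with all 6 arrays (black, standard error) and with each array left out in turn (triangles; a missing triangle means the probe set fell below the filter). Leaving out estrogen+progesterone 2 brings every member to between -0.40 and 0.085, and leaving out estrogen+progesterone 1 takes XBP1 to -4.02. The latter value rests on estrogen+progesterone 2 alone, where XBP1 was under the floor.

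On the 3 low-floor arrays, 4 of the 5 tested members varied less than the median probe set, and ATF4 varied more. Signals on estrogen 1, estrogen 2 and estrogen+progesterone 1 spanned 196 to 225 for EIF2AK3, 213 to 227 for ATF6, 912 to 1125 for XBP1, 306 to 494 for DDIT3 and 1594 to 2830 for ATF4. On the normalized log2 scale the range over these arrays was 0.22, 0.13, 0.12, 0.41 and 0.83 in the same order, beside a median of 0.60 for all probe sets tested. The 5 members were above the floor on these arrays, which was not required of the probe sets behind the median. No unusual steadiness of the members is therefore read from the count. The second XBP1 probe set, above the floor on estrogen 1 alone, ranged over 1.54, and ERN1, below it on all 3, is given no range. After normalization, estrogen+progesterone 2 lay below each of the 3 for 4 of 5, beside 50.8% of all probe sets tested. As deposited, its EIF2AK3 signal of 199 was above the 196 of estrogen 2. EIF2AK3, XBP1 and DDIT3 were under the floor there, at 0.70, 0.16 and 0.69 times it, so their levels on that array are only bounds. Estrogen+progesterone 2 was the highest of the 6 normalized values for ATF6, as for 26.4% of probe sets tested, and the lowest for XBP1 and ATF4, as for 34.2%.

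The members did not share 1 profile over the 6 arrays. Likeness was measured as the mean absolute difference between centered normalized log2 profiles over the 6 arrays, among 9037 other genes with a tested probe set. The profiles closest to EIF2AK3 were those of CAPZA2, an actin capping subunit, at 0.16, TMEM181 at 0.19 and DNM2, a dynamin of endocytosis, at 0.22, all under the floor in both placebo monkeys. The member nearest to EIF2AK3 was XBP1 at 1.05, the 1624th closest gene, against a median of 1.41 over all genes, and ATF4 was the farthest at 1.75, the 7252th. For XBP1 the closest were BDP1 at 0.091, SWAP70 at 0.12 and EMC8 at 0.13, each low on estrogen+progesterone 2. For ATF4 they were SPOP at 0.11, PLD3 at 0.12 and ADCYAP1R1 at 0.14. For ATF6 they were PYROXD2 at 0.15, SLC47A1 at 0.16 and UFSP2 at 0.18, each at its highest signal on estrogen+progesterone 2. For DDIT3 they were MTHFD1 at 0.19, MCEE at 0.19 and CTSL at 0.20. The arrays share their floors, so such likeness also follows the background of the arrays.

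The wider pathway was read from 6 lists by role, with 149 genes, of which 106 were named on the array and 91 had a tested probe set; each gene is given by its probe set with the highest mean. HSPA5, the ER chaperone BiP, and PPP1R15A, the regulatory subunit of an eIF2alpha phosphatase, had no probe set named here. No pathway gene passed limma's test in any comparison, as for all genes. Of the 91, 58 were above 0 for estrogen minus placebo, with a median of 0.31, beside 60.6% of 9781 genes and a median of 0.28. For estrogen+progesterone minus placebo 29 were above 0 (median -0.33), beside 46.2% of genes and a median of -0.10. For estrogen+progesterone minus estrogen 22 were above 0 (median -0.78), beside 34.0% of genes and a median of -0.44. Normalized groups did not overlap for 26 genes higher and 18 lower with estrogen than placebo, beside 30.6% and 19.8% of genes. Against placebo the combined hormones gave 4 higher and 10 lower, beside 11.7% and 12.7%, and against estrogen 7 higher and 21 lower, beside 13.5% and 17.9%. Without estrogen+progesterone 2, 46 of the 90 genes then tested were above 0 in that last comparison.

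In the eIF2alpha circuit on which PERK acts, 6 of 15 genes were named, all of them subunits of eIF2 or of its exchange factor eIF2B. Genes of this list above 0 numbered 5 of 6 for estrogen minus placebo (median 0.61), 2 of 6 for the combined hormones minus placebo (-0.39), and 1 of 6 when estrogen was the reference (-0.91, and -0.12 without estrogen+progesterone 2). EIF2S2, the beta subunit of eIF2, had signals of 1885 and 291 under placebo, 3431 and 1238 under estrogen, and 4443 and 401 under the combined hormones. Its deposited signals overlapped between the groups in each comparison. EIF2S3, the gamma subunit, gave 333 and 470.5, then 237 and 193, then 157 and 422, and EIF2B3, a subunit of eIF2B, gave 429 and 299, then 380 and 520, then 301 and 214. Their differences for both hormones minus estrogen were -0.36 ± 1.26 for EIF2S2, 0.29 ± 0.86 for EIF2S3 and -0.92 ± 0.86 for EIF2B3, with adjusted p from limma of 0.933, 0.921 and 0.799.

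Partners and targets of ATF4 and CHOP were named for 23 of 30 genes and tested for 17. Of these, 10 were above 0 for estrogen minus placebo (median 0.31), 6 for the combined hormones minus placebo (-0.14), and 6 when estrogen was the reference (-0.40, and -0.0042 without estrogen+progesterone 2). The 3 with the highest means were PHGDH, an enzyme of serine synthesis, SLC7A11, the cystine and glutamate exchanger, and NFE2L2, the antioxidant regulator NRF2. PHGDH gave 1050.2 and 1055 under placebo, 2151 and 2196 under estrogen, and 1914 and 446 under the combined hormones, and SLC7A11 gave 407 and 783, then 2023 and 1989, then 2646 and 209. In both genes estrogen+progesterone 2 was the lowest of the 6 signals and the low-floor arrays were the highest. After normalization, estrogen minus placebo was -0.12 ± 0.84 (SE) for PHGDH and 0.87 ± 1.15 for SLC7A11. NFE2L2 gave 528 and 681, then 814 and 515, then 850.0 and 460.0.

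Genes of IRE1 signaling, XBP1 splicing and ER translocation were named for 13 of 21 and tested for 12. Of these, 7 were above 0 for estrogen minus placebo (median 0.20), 3 for the combined hormones minus placebo (-0.41), and 3 when estrogen was the reference (-1.07, and -0.15 without estrogen+progesterone 2). SEC63, of the translocation channel, gave 1567 and 577 under placebo, 493 and 869 under estrogen, and 417 and 939 under the combined hormones. SEC61G, a channel subunit, gave 341 and 873, then 1293 and 1048, then 925 and 331. BLOC1S1, whose mRNA IRE1 can cut, gave 869 and 626, then 1340.4 and 1627, then 915 and 80.8. The log2 difference for both hormones minus estrogen was -2.19 ± 1.12 for BLOC1S1, with an adjusted p of 0.799 from limma, and -0.54 without estrogen+progesterone 2. For estrogen minus placebo it was -1.22 ± 1.06 (SE) for SEC63, 0.37 ± 0.94 for SEC61G and -0.01 ± 1.12 for BLOC1S1.

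Factors that process or resemble ATF6 were named for 14 of 17 genes and tested for 11, with 6 above 0 for estrogen minus placebo (median 0.02), 3 for the combined hormones minus placebo (-0.10), and 4 when estrogen was the reference (-0.68, and 0.12 without estrogen+progesterone 2). WFS1, an ER membrane protein that restrains ATF6, gave signals of 645 and 614 under placebo, 959 and 515 under estrogen, and 1102 and 520.2 under the combined hormones, and was above the floor on all 6 arrays. YY1 and NFYB, partners of ATF6 on DNA, stood at -1.15 ± 1.08 and -0.84 ± 0.90 for both hormones minus estrogen, and at 0.32 and -0.07 without estrogen+progesterone 2.

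ER chaperones and folding enzymes, the main output of ATF6 and XBP1, were named for 25 of 32 genes and tested for 21. Of these, 14 were above 0 for estrogen minus placebo (median 0.46), 6 for the combined hormones minus placebo (-0.54), and 2 when estrogen was the reference (-0.99, and -0.13 without estrogen+progesterone 2). CANX, calnexin of the ER membrane, gave signals of 4616 and 6544 under placebo, 8449 and 6586 under estrogen, and 9970.4 and 1035 under the combined hormones. It passed the floor on all 6 arrays. For estrogen minus placebo its log2 difference was -0.47 ± 0.82, although both deposited estrogen signals were above both placebo signals. Its difference for both hormones minus estrogen was -0.13 ± 0.82, with an adjusted p of 0.965 from limma. FKBP2 and PPIB, prolyl isomerases, stood at 0.01 ± 0.88 and -1.43 ± 1.04 in the same comparison. Genes of ER-associated degradation, which returns misfolded proteins to the cytosol, were named for 25 of 34 and tested for 24. Of these, 16 were above 0 for estrogen minus placebo (median 0.24), 9 for the combined hormones minus placebo (-0.20), and 6 when estrogen was the reference (-0.84, and 0.09 without estrogen+progesterone 2). ERLEC1, an ER lectin, gave 844 and 900.3, then 3557 and 2536, then 3946 and 593. SELENOK gave 708 and 1219, then 2942 and 2081, then 2868 and 346. After normalization, estrogen minus placebo was 0.56 ± 0.84 (SE) for ERLEC1 and 0.26 ± 0.98 for SELENOK. STUB1, a ubiquitin ligase, stood at -1.47 ± 1.10 for both hormones minus estrogen.

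**Figure D4:**
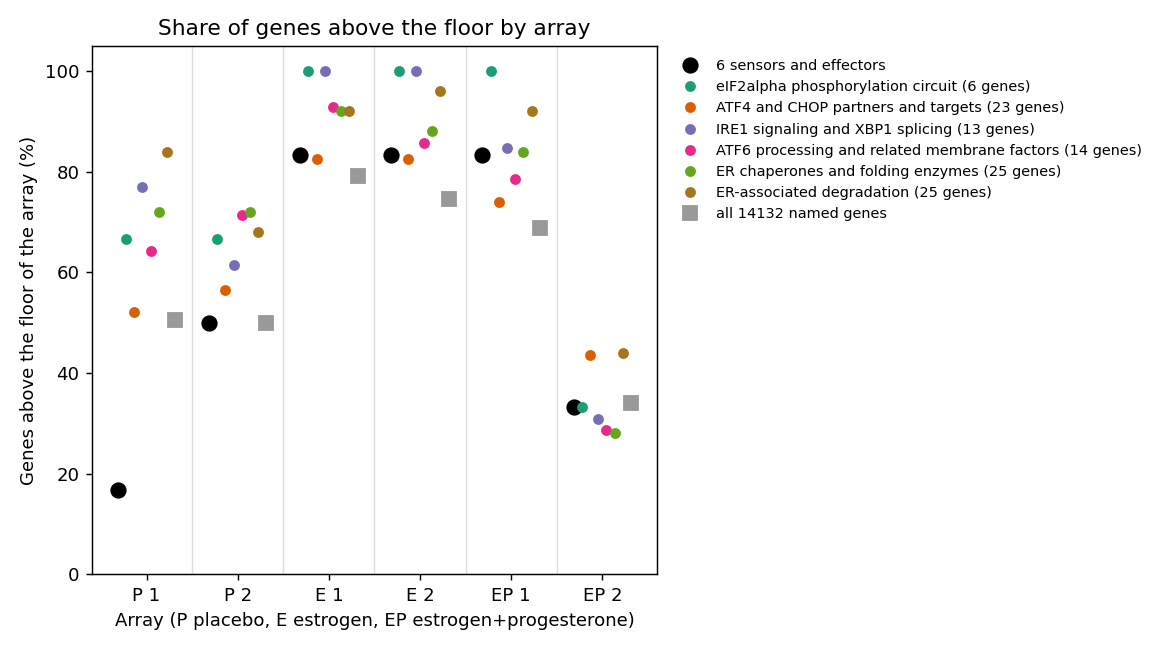
Percent of genes above the floor of each array, for the 6 sensors and effectors, the 6 pathway lists and all 14132 named genes, each gene by its probe set with the highest mean. All lists and the background are higher on E 1, E 2 and EP 1 than on EP 2, where 33.3% of the members and 34.0% of all named genes were above the floor.

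The floor pattern of EIF2AK3, under it with placebo and over it with estrogen in both monkeys, was shared by 13 of the 106 named pathway genes, beside 15.2% of all 14132 named genes. Of these, 4 picked after their values were seen show its range. SEC61A1, the pore of the translocation channel, gave 48.7 and 67.4 under placebo, 328 and 477 under estrogen, and 310.0 and 90.6 under the combined hormones. DDIT4, a stress-induced inhibitor of mTOR signaling, gave 164 and 112, then 854 and 555, then 680.0 and 50.3. Both were again below the floor on estrogen+progesterone 2. FGF21 and GDF15, secreted stress signals, had the same pattern although their deposited signals were higher on both placebo arrays than on both estrogen arrays, FGF21 at 172 and 201 against 54.3 and 54.5, and GDF15 at 182 and 56.1 against 52.8 and 54.8. On estrogen+progesterone 2, 35.8% of the 106 pathway genes were above the floor, beside 34.0% of all named genes, and on estrogen 1 the shares were 91.5% and 79.1%.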

How the data were processed

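RNA of laser-captured serotonin neurons was extracted with a microkit and labelled with biotin, per the labels' protocols. The authors deposited 1 linear intensity per probe set and array, and the mean of every array, with 2% trimmed at both ends, is about 200.0, while the control floors differed between arrays. No source used here names the summarization software. Gene symbols came from the platform annotation, updated through gene numbers: 24956 transcript probe sets had 1 symbol, of which 24616 matched the RefSeq gene table, 361 had several and 27449 none. After log2(intensity + 16) and quantile normalization over the 6 arrays, the 26383 transcript probe sets whose mean reached the 50th percentile were tested. Differences on this scale understate changes of low signals. The normalization shifted the median difference: for estrogen minus placebo it was -0.14 before and 0.17 after, for estrogen+progesterone minus placebo -0.17 and -0.03, and for estrogen+progesterone minus estrogen 0.06 and -0.22.

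limma 3.58.1 (R 4.3.3) fitted 3 group means over the 6 arrays, leaving 3 residual degrees of freedom; tests were two-sided, with Benjamini-Hochberg adjustment and a threshold of 0.05. The code was tested on simulated data. Of the 7 member probe sets, ERN1 and the second XBP1 probe set did not enter the test. The members, lists, floor and division of arrays were chosen with earlier results of these data known. Named pathway genes are the 3 with the highest mean in each list, plus HSPA5 and PPP1R15A, and the 3 closest profiles of each tested member; exceptions are stated. Alternatives changed the offset, scaling, filter or floor, left out single arrays, blocked by replicate number, used array weights or a trended prior, or fitted 2 groups alone.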

Additional observations from a re-analysis of the deposited data

How the results depend on the processing

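With 1 array left out, the difference of both hormones minus estrogen ran from -0.45 to 0.085 for EIF2AK3, -0.023 to 1.44 for ATF6 and -4.02 to 0.059 for XBP1. In that comparison EIF2AK3 changed sign to 0.0028 with no quantile normalization and to 0.085 without estrogen+progesterone 2, ATF6 to -0.23 with median-centering and to -0.023 without estrogen+progesterone 2, and XBP1 to 0.059 without estrogen+progesterone 2. The median over all genes tested was -0.44 in the main fit and -0.31 with no quantile normalization. It was -1.11 with median-centering and 0.05 without estrogen+progesterone 2, so the values of all genes shifted between these fits. ATF4 and DDIT3 kept their sign in all 16 alternatives run for them, between -2.13 and -0.40 and between -1.47 and -0.22. Of the members tested there, none passed the threshold in any alternative that kept 2 arrays per group. The -4.02 of XBP1 came without estrogen+progesterone 1 and rests on estrogen+progesterone 2 alone, at 0.16 times its floor. Against placebo, EIF2AK3 ran from 2.03 to 3.95 with estrogen and from 1.71 to 3.37 with both hormones in the 11 alternatives it entered. The number of probe sets limma called was 0 in each comparison; array weights gave 434 for estrogen minus placebo, 288 of them higher with estrogen, and leaving out 1 array gave 0 to 3599 for both hormones minus estrogen and 0 for the others. The highest came without estrogen+progesterone 1, and the cause of these changes was not tested. With the replicate number as a block the number called was 0 in all 3 comparisons; the labels do not say that a number pairs animals, and deviations of same-numbered arrays correlated at r of -0.0633 to 0.0822. Signals near or below the floor limit EIF2AK3 with placebo, ERN1 everywhere and the second XBP1 probe set. They also limit EIF2AK3, XBP1 and DDIT3 on estrogen+progesterone 2, DDIT3 on placebo 1, and XBP1 and ATF6 on both placebo arrays.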
